A study of Mus musculus with 2 samples.

Results

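The Mef2 genes Mef2a, Mef2b, Mef2c and Mef2d encode the MEF2 transcription factors, and the rows of the deposited expression table that carry these 4 symbols, of 23235 symbols in all, are described here. MEF2 factors belong to the MADS box family. They bind A/T-rich sites as dimers, and in the muscle lineage they act together with the MyoD family of basic helix-loop-helix factors to switch on muscle genes. Class IIa histone deacetylases hold them in a repressed state, and p38 kinase, calcium/calmodulin-dependent kinases and calcineurin relieve or add to their activity. Outside muscle, Mef2c also acts in endothelial, neural crest, cartilage and lymphoid cells, and Mef2b is known from B cells.

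The series compared cultured muscle progenitors of Pax7 KO neonates with those of wild-type (WT) neonates, to find genes that depend on Pax7, the paired-box factor of satellite cells. Each genotype had 1 polyA RNA-seq library, so there is no replicate check, no test between genotypes is possible and every difference is one between these 2 libraries. The KO animals carried Pax7CreER, a tamoxifen-inducible Cre driven by Pax7, and the floxed allele Pax7flox/flox, and received tamoxifen at 75 µg per g of body weight on 5 consecutive days from day 5. The WT animals are labelled by genotype alone, with no statement on tamoxifen. Both cultures came from pronase-digested hind limb and back muscle and were grown on Matrigel with bFGF, without a stated sort. The number of animals behind each culture is not given.

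Values are FPKM, fragment numbers divided by the length of the transcript and by the size of the library. Depth, read from the spacing of low values, was about 21100000 fragments in KO and 24900000 in WT, assuming that no scaling factor had been applied. The log2 ratio is log2((KO FPKM + 1) / (WT FPKM + 1)), and the added 1 understates the change of low genes. Among the 11751 genes with a mean of 1 FPKM or more, its median was 0.42, so each ratio is also given after subtracting 0.42, "relative to the median gene". Pax7 was at 0.769 FPKM in KO and 3.21 FPKM in WT, which goes with the labels, although the deposited row covers the whole gene and not the floxed part alone. All 7 myogenic markers were detected, but the endothelial junction genes Pecam1 and Cdh5 were also present, at 185 and 170 FPKM in KO and 107 and 103 FPKM in WT, so the cultures were not muscle cells alone.

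The sequence at the start of each gene is shown because the members differ there in base composition and in the sites they hold. RefSeq (GRCm38.p6) lists 6 start sites for the 4 genes, of which 3 belong to Mef2c. The windows below hold 150 bases each on the gene's own strand and, except for Mef2a, end at the base before the start. The Mef2a window runs 20 bases past its start, which takes in the whole of its match. For Mef2c the second listed start is given, the only start of its 3 that holds the palindrome named below. Capitals mark matches, on either strand, to the MEF2 site CTAAAAATAG, the E-box CANNTG bound by MyoD family factors, or TAATNNATTA, a palindrome of the kind that paired-class homeodomains bind. The windows are chr7:67372839-67372988 (minus strand) for Mef2a, chr8:70152611-70152760 (plus strand) for Mef2b, chr13:83523506-83523655 (plus strand) for Mef2c and chr3:88142222-88142371 (plus strand) for Mef2d.
Mef2a: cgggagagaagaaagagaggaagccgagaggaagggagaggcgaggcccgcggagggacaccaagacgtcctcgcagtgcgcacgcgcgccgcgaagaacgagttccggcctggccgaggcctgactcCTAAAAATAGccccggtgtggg
Mef2b: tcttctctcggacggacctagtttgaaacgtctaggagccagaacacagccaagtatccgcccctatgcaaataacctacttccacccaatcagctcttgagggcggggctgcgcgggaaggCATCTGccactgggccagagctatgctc
Mef2c: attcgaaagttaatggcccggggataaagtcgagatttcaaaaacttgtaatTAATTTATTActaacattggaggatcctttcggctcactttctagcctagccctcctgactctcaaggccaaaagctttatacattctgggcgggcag
Mef2d: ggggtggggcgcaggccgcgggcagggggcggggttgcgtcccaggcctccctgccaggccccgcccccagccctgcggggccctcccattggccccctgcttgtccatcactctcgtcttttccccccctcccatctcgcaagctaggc

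The MEF2 site of Mef2a, whose product binds such sites, spans position -2 to position 8 around its start, with no position 0. The exact letters CTAAAAATAG were read from this Mef2a promoter, so its match to them was fixed in advance. They occur in 36 of 32851 RefSeq promoters of 300 bases, or 0.110%, a share that is no background for that match. The wider MEF2 consensus, which includes these letters, occurs in 3.19%. None of the other 5 promoters of the family held either form. The palindrome at the second Mef2c start spans position -98 to position -89, and 0.390% of all promoters hold such a palindrome. An E-box was present in 3 of the 6 member promoters, 1 of Mef2b and 2 of Mef2c, against 72.3% of all promoters. In base composition the 300-base promoters ranged widely, with G and C making up 72% in Mef2d, 62.3% in Mef2a, 57% in Mef2b and 35.7% to 48.3% at the 3 starts of Mef2c, against a median of 52.7% over all promoters. A match or its absence describes the letters of these windows only.

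Mef2d was the most abundant member in both libraries, and Mef2a and Mef2c were the members with the higher KO values relative to the median gene. Mef2d (chromosome 3, 87946317 to 87973089, mm9), a broadly expressed member that is present in proliferating myoblasts, was at 29.6 FPKM in KO and 26.6 FPKM in WT. Its log2 ratio was 0.15 as deposited and -0.27 relative to the median gene, so that its direction depends on the scaling. The estimated 95% exact counting interval of its log2 ratio without the pseudocount was 0.09 to 0.22, and the median gene stood at 0.50 on that scale. Of all genes with a mean of 1 FPKM or more, 20.4% had a lower log2 ratio than Mef2d. These intervals rest on the estimated depth and hold counting error alone, without any spread among animals or cultures.

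Mef2a (chromosome 7, 74378717 to 74517744), a widely expressed member that takes part in muscle regeneration, was at 11.3 FPKM in KO and 7.23 FPKM in WT, a 1.56-fold higher value. Its log2 ratio of 0.58 came to 0.15 relative to the median gene. The counting interval without the pseudocount was 0.52 to 0.76, and 68.9% of genes had a lower log2 ratio. The difference from the median gene was therefore small, although that interval lies above the median gene's 0.50.

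Mef2c (chromosome 13, 83643033 to 83806684), a member with roles in skeletal muscle, heart and vessels, was at 7.84 FPKM in KO and 4.39 FPKM in WT, 1.79-fold higher. Of the 4 members it had the largest log2 ratio, 0.72 as deposited and 0.29 relative to the median gene. The counting interval without the pseudocount was 0.70 to 0.98. A lower log2 ratio was found for 81.7% of genes.

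Mef2b (chromosome 8, 72676677 to 72691387) was close to the detection limit. It was listed at 0.0725 FPKM in KO and 0.272 FPKM in WT, about 2 and 9 estimated fragments. The KO value lay under the 0.106 FPKM that 3 fragments of this gene would give. Its log2 ratio was -0.25 with the pseudocount and -1.91 without it, with a counting interval of -5.18 to 0.34. That interval includes 0, so no difference as deposited was detectable at this depth. It lies below the median gene's 0.50, but it rests on these few estimated fragments. Mef2b was the member that did not reach a mean of 1 FPKM, and 3 of 4 members passed that limit.

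**Figure D1:**
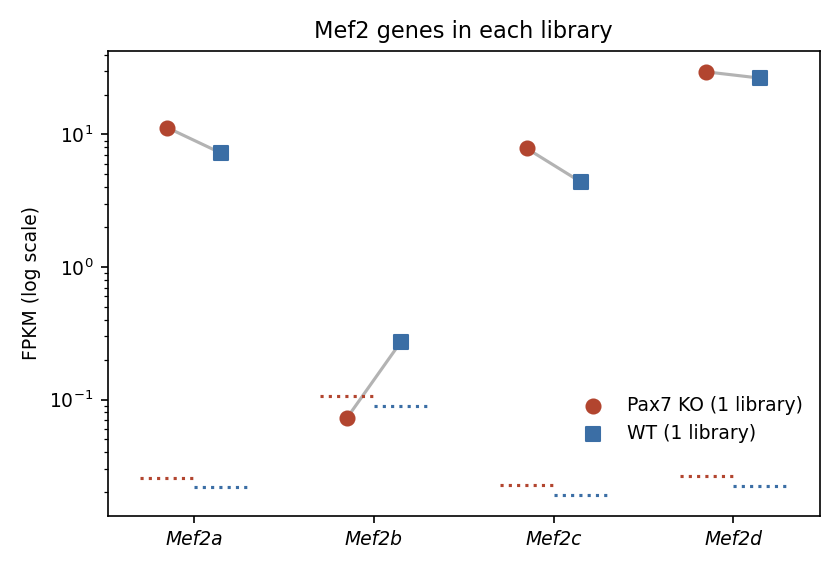
FPKM of the 4 Mef2 genes (log axis) in the Pax7 KO library (circles) and the WT library (squares), with dotted lines at the FPKM that 3 estimated fragments would give in that library. Mef2d was highest at 29.6 FPKM in KO and 26.6 FPKM in WT, and Mef2b in KO lay under its line.

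None of the 4 members reached a log2 ratio of 1 in size, either as deposited or relative to the median gene. Among the 11751 genes, 5.06% were higher by 2-fold or more and 0.689% lower as deposited, and relative to the median gene these shares were 1.35% and 1.45%. Without the pseudocount they were 10.2% and 1%, and Mef2b, at -1.91, was then past the limit on its few fragments. With shares this small, 4 members inside the limit is no result about the family. In the authors' deposited table of called genes, 0 of the 4 members appear among the 713 higher genes and 0 among the 382 lower genes. No row of the table overlaps the coordinates of a member.

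**Figure D2:**
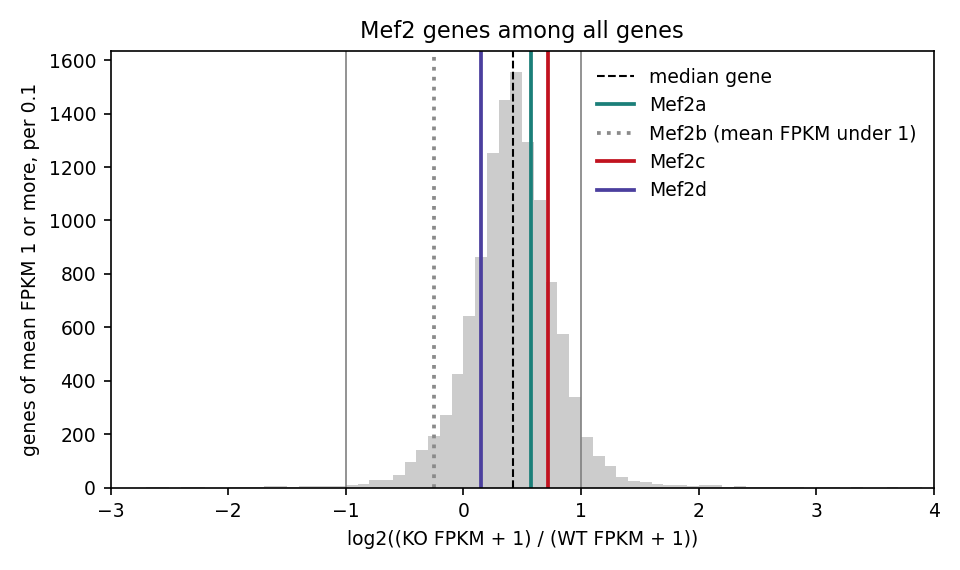
Number of genes with a mean of 1 FPKM or more per 0.1 of log2((KO FPKM + 1) / (WT FPKM + 1)), with lines for the 4 Mef2 genes, the median gene (dashed, 0.42) and 2-fold (grey). Mef2d lies left of the median gene and Mef2a and Mef2c right of it, and 25 genes lie beyond the axis.

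The make-up of the family differed between the libraries, and this comparison does not depend on how the libraries were scaled to each other. Mef2d made up 60.7% of the summed Mef2 FPKM in KO and 69.1% in WT. The share of Mef2a was 23.1% in KO and 18.8% in WT, and that of Mef2c 16.1% in KO and 11.4% in WT. Mef2b supplied 0.148% in KO and 0.708% in WT. All members together summed to 48.8 FPKM in KO and 38.5 FPKM in WT, with a log2 ratio of 0.34. Against the median gene the sum lay at -0.09, so its direction flips with the scaling.

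Taken as ratios within a library, Mef2d exceeded Mef2c 3.78-fold in KO and 6.06-fold in WT. The log2 difference of these ratios was -0.68, with an exact conditional counting interval of -0.84 to -0.53. Mef2d exceeded Mef2a 2.63-fold in KO and 3.68-fold in WT, a log2 difference of -0.48 with an interval of -0.62 to -0.34. Mef2a and Mef2c were closer to each other in their change: Mef2a exceeded Mef2c 1.44-fold in KO and 1.65-fold in WT, a log2 difference of -0.20 with an interval of -0.39 to -0.01. The order of the levels, Mef2d over Mef2a over Mef2c over Mef2b, was the same in both libraries. Whether Mef2 levels differed per cell or through the share of cells that express each member cannot be told apart in these bulk libraries.

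**Figure D3:**
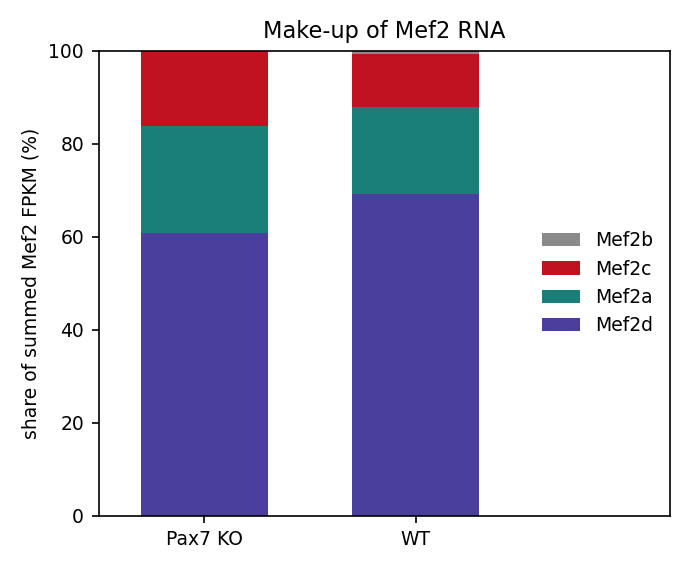
Share of the summed FPKM of the 4 Mef2 genes (%) held by each member in the Pax7 KO library and the WT library. Mef2d holds 60.7% in KO and 69.1% in WT, with larger shares of Mef2a and Mef2c in KO.

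Next to Mef2b lies 2310045N01Rik (chromosome 8, 72663612 to 72671159), which ends 5517 bases before Mef2b starts in the deposited coordinates and is listed in RefSeq as Borcs8. In human a read-through transcript joins the corresponding genes. The neighbour was at 23.9 FPKM in KO and 10.2 FPKM in WT, a log2 ratio of 1.15, or 0.73 relative to the median gene, and the authors' deposited table lists it among the higher genes. Its counting interval without the pseudocount was 0.99 to 1.47. It thus went the opposite way from the few fragments of Mef2b. The rows nearest to the other members were within 2-fold or, for C130071C03Rik beyond Mef2c, at the lowest listed value in WT.

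Genes that act with MEF2 factors were read in 8 lists, grouped by role. They held 124 genes other than the members, of which 101 had a mean of 1 FPKM or more. Of these, 2 were at least 2-fold higher (1.98%, against 5.06% of all genes) and 4 at least 2-fold lower (3.96%, against 0.689% of all genes). The lower ones were Myf5, Myod1, Vgll2 and Rbm24. The lists were chosen with earlier results of these data known, so these shares are no test of the pathway. The median log2 ratio was 0.33, against 0.42 over all genes.

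The DNA-binding partners held the largest differences. Myod1, a myogenic determination factor that binds E-boxes beside MEF2 sites, was at 17.9 FPKM in KO and 90.4 FPKM in WT, a log2 ratio of -2.27. Myf5, the other early determination factor, was at 1.58 FPKM in KO and 14.8 FPKM in WT, a log2 ratio of -2.61. Tcf3, an E protein that dimerises with MyoD, was at 30.0 FPKM in KO and 25.5 FPKM in WT. Of 12 partners above the limit, 2 were lower by 2-fold or more and none higher, with a median log2 ratio of 0.21. Within the WT library Myod1 stood above every Mef2 member, and within KO it stood below Mef2d. Srf, the MADS box relative of the MEF2 factors, was at 50.3 FPKM in KO and 45.8 FPKM in WT, with a log2 ratio of 0.13 that is -0.29 relative to the median gene.

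Corepressors of MEF2 were all within 2-fold. Of 7 above the limit, Hdac5 and Hdac7, both class IIa deacetylases, had the largest log2 ratios, 0.70 and 0.58. Hdac5 was at 16.8 FPKM in KO and 9.95 FPKM in WT. Hdac7 was at 24.7 FPKM in KO and 16.2 FPKM in WT, and its row overlaps that of Slc48a1, so reads may be shared. Hdac3, the deacetylase that acts in complex with class IIa members, was at 32.7 FPKM in KO and 22.3 FPKM in WT. The median of the list was 0.25.

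Of 15 coactivators, 1 was at least 2-fold lower and none higher, with a median of 0.29. The lower one was Vgll2, a muscle-enriched cofactor that binds TEAD factors and MEF2, at 6.29 FPKM in KO and 24.3 FPKM in WT, a log2 ratio of -1.80. Wwtr1, the TAZ coactivator, was at 34.4 FPKM in KO and 20.0 FPKM in WT. Smarca4, the ATPase of the SWI/SNF chromatin remodeller, was at 32.7 FPKM in KO and 26.5 FPKM in WT. Without the pseudocount 1 coactivator was at least 2-fold higher, Kat2b, an acetyltransferase, at 2.53 FPKM in KO and 1.01 FPKM in WT.

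Of 30 kinases and phosphatases upstream of MEF2, 2 were higher by 2-fold or more and none lower as deposited, and relative to the median gene none was. The higher ones were Mapk12, the p38 gamma kinase of muscle, at 11.2 FPKM in KO and 4.52 FPKM in WT, and Rcan1, a feedback regulator of calcineurin, at 35.2 FPKM in KO and 17.0 FPKM in WT. Their log2 ratios were 1.15 and 1.01, or 0.73 and 0.59 relative to the median gene. Map2k3, a kinase that activates p38, was the most abundant of the list at 80.0 FPKM in KO and 65.0 FPKM in WT. The median of the list was 0.40, close to that of all genes. Mapk14, the p38 alpha kinase, was at 17.5 FPKM in KO and 13.0 FPKM in WT.

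Alternative exons of Mef2 transcripts are set by RNA-binding proteins, and the deposited rows hold 1 value per gene, so the exons themselves were not analysed here. Of 6 such regulators above the limit, Rbm24, a muscle splicing regulator, was at least 2-fold lower, at 1.21 FPKM in KO and 4.30 FPKM in WT, and none was higher. Mbnl1 and Mbnl2, muscleblind splicing factors, had the highest means of the 2 libraries, with log2 ratios of 0.35 and 0.27.

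Muscle genes described as MEF2 targets were within 2-fold as deposited in all 21 cases above the limit, with a median log2 ratio of 0.17, or -0.25 relative to the median gene. Of the 33 listed, 12 did not reach a mean of 1 FPKM. Without the pseudocount 1 of the 21 was at least 2-fold higher, Pygm, at 4.11 FPKM in KO and 2.02 FPKM in WT. Eno3, muscle enolase, was at 13.1 FPKM in KO and 23.1 FPKM in WT, a log2 ratio of -0.77, and it passed 2-fold relative to the median gene, at -1.19. Aldoa, a glycolytic aldolase, was at 829 FPKM in KO and 532 FPKM in WT. Des, the muscle intermediate filament, was at 67.6 FPKM in KO and 75.8 FPKM in WT, and Ckm, muscle creatine kinase, at 9.50 FPKM in KO and 9.33 FPKM in WT. Relative to the median gene 15 of the 21 lay below it and 6 above.

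Targets described in other cell types lay higher. Of 10 above the limit 7 were above the median gene and 3 below, and the list median was 0.60. With the pseudocount none passed 2-fold. Without it 2 were at least 2-fold higher, Arc and Mmp10. Mmp10 was at 2.34 FPKM in KO and 0.913 FPKM in WT. Klf4, a Krüppel-like factor of vessel cells, was at 25.3 FPKM in KO and 13.9 FPKM in WT. Arc, an activity-regulated gene of neurons, was at 2.14 FPKM in KO and 0.778 FPKM in WT. Nr4a1, an immediate early nuclear receptor, was at 97.6 FPKM in KO and 62.7 FPKM in WT, and Egr1, another immediate early gene, at 47.0 FPKM in KO and 31.4 FPKM in WT. The members and both target lists are set side by side in the plot of the pathway lists.

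**Figure D4:**
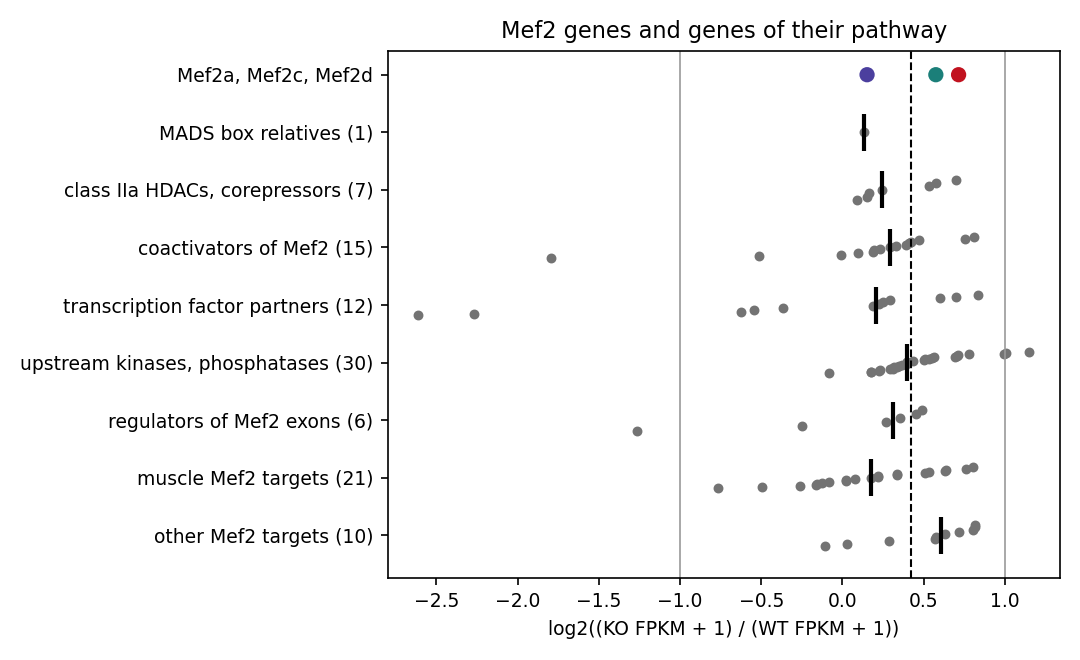
Log2((KO FPKM + 1) / (WT FPKM + 1)) of Mef2d (violet), Mef2a (teal) and Mef2c (red) in the top line, and of each gene with a mean of 1 FPKM or more in 8 pathway lists (grey points, number in brackets, list median as a bar). The dashed line is the median gene at 0.42 and the grey lines are 2-fold. Myf5, Myod1, Vgll2 and Rbm24 lie left of the lower limit.

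Markers of cell types that also use Mef2 genes differed between the libraries. All 10 endothelial markers passed the limit, 8 of them lay above the median gene, and 2 were at least 2-fold higher. The log2 ratios of this list ran from 0.33 to 1.85, with a median of 0.77. The 10 endothelial markers summed to 809.9 FPKM in KO and 451 FPKM in WT. Cldn5, an endothelial tight junction gene, and Emcn, an endothelial sialomucin, were the 2 higher ones, with log2 ratios of 1.85 and 1.11, beside 5.06% of all genes. Relative to the median gene Emcn was at 0.69 and Cldn5 alone passed 2-fold, beside 1.35% of all genes. Myogenic markers summed to 129.7 FPKM in KO and 248 FPKM in WT. Of the 7, 4 were at least 2-fold lower, beside 0.689% of all genes: Myf5, Myod1, Cdh15 and Pax7. Pax7 is the gene targeted in KO, so its place among them follows from the design. The part of these marker differences in the values of Mef2c and the other members was not tested.

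Smooth muscle and pericyte markers (8 of 8 above the limit) summed to 918 FPKM in KO and 848 FPKM in WT, with 4 above the median gene and 4 below it. Kcnj8 and Rgs5, both pericyte genes, passed 2-fold upwards as deposited, and Kcnj8 alone did relative to the median gene. The background for this list and those below is 5.06% of all genes 2-fold higher as deposited, and 1.35% relative to the median gene. The contractile genes Acta2, Tagln, Cnn1 and Myh11 lay below the median gene, at -0.38 to -0.25. Cartilage markers, another lineage in which Mef2c acts, summed to 200.3 FPKM in KO and 60.3 FPKM in WT, and Col2a1 and Acan, both cartilage matrix genes, were at least 2-fold higher of 4 above the limit. Most of that sum was Col2a1, at 170.5 FPKM in KO and 42.0 FPKM in WT, and Sox9 and Comp lay below the median gene, at -0.26 and -0.06. Schwann and neural crest markers (6 of 6) summed to 64.4 FPKM in KO and 47.2 FPKM in WT. Of these, 4 lay above the median gene and 2, Foxd3 and Erbb3, below it, at -0.44 and -0.07. The list median was 0.05 relative to the median gene. The glial calcium-binding gene S100b had the largest log2 ratio, 0.69, or 0.27 relative to the median gene. Fibroblast markers (6 of 6) summed to 214 FPKM in KO and 139 FPKM in WT, with 4 above the median gene and 2, Col1a1 and Thy1, below it. Dcn, decorin, passed 2-fold upwards as deposited but was at 0.70 relative to the median gene, where no fibroblast marker passed. Adipocyte markers (6 of 6) summed to 1102 FPKM in KO and 211 FPKM in WT, and all 6 were at least 2-fold higher. The adipocyte hormones Adipoq and Retn had log2 ratios of 3.08 and 2.60, the lipid droplet genes Cidec and Plin1 2.41 and 2.40, the fatty acid carrier Fabp4 2.33 and the regulator Pparg 1.46.

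Few blood cell and neuron markers reached the limit. B lymphoid markers, of which 1 of 5 reached the limit (Cd79a, a subunit of the B cell receptor), summed to 2.57 FPKM in KO and 3.19 FPKM in WT. Macrophage markers, 3 of 7 above the limit, summed to 26.9 FPKM in KO and 19.0 FPKM in WT. Their median log2 ratio was 0.41, close to that of all genes. Lyz2, lysozyme, and Cd14, a receptor for bacterial lipopolysaccharide, had the largest log2 ratios, 0.65 and 0.41. Relative to the median gene Lyz2 was above it, at 0.22, and 2, Cd14 and Cd68, were below it, at -0.01 and -0.10. Most of the macrophage sum was Lyz2 and Cd68, at 13.0 and 10.5 FPKM in KO and 7.93 and 8.22 FPKM in WT. Under the limit Csf1r, Adgre1 and Ptprc were lower in KO, at 0.379, 0.156 and 0.226 FPKM against 0.488, 0.331 and 0.318 FPKM in WT. Itgam, also under it, was higher, at 0.570 FPKM in KO and 0.449 FPKM in WT. Of the neuron markers 1 of 5 reached the limit, Tubb3, a tubulin, at 43.7 FPKM in KO and 28.9 FPKM in WT. Under the limit Rbfox3, Snap25 and Map2 were lower in KO, at 0.543, 0.305 and 0.884 FPKM against 0.791, 0.563 and 0.991 FPKM in WT. Syt1, also under it, was higher, at 0.132 FPKM in KO and 0.0402 FPKM in WT. No marker of any list stood at the lowest listed value in either library.

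**Figure D5:**
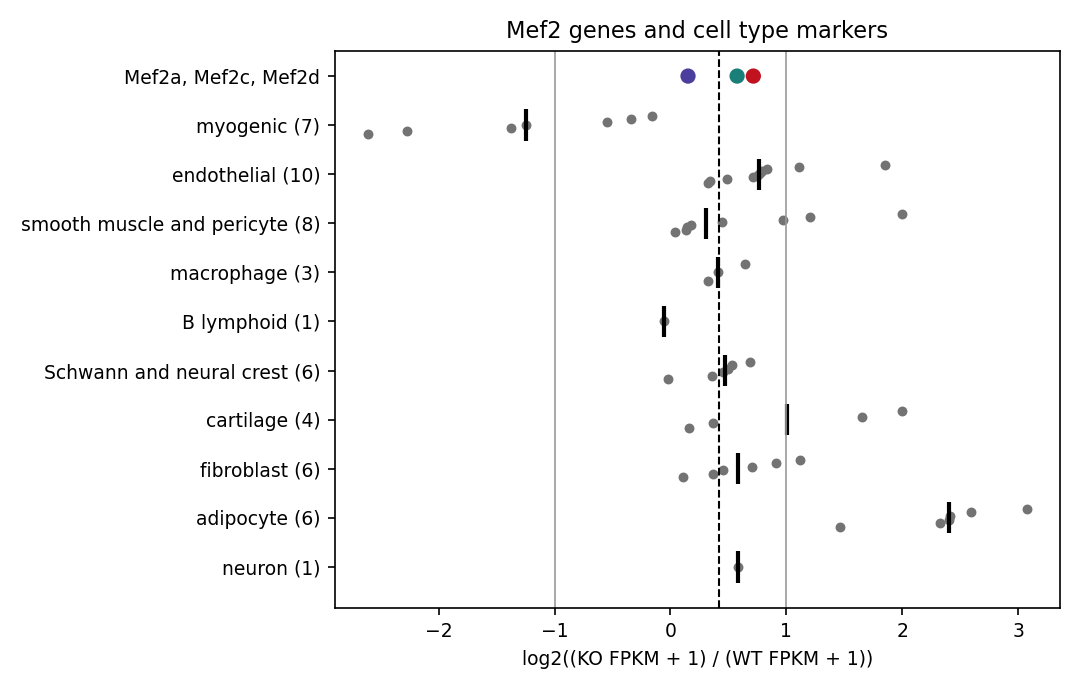
Log2((KO FPKM + 1) / (WT FPKM + 1)) of Mef2d (violet), Mef2a (teal) and Mef2c (red) in the top line, and of the markers with a mean of 1 FPKM or more in 10 cell type lists (grey points, number in brackets, list median as a bar), with the median gene dashed at 0.42. Endothelial markers have a median of 0.77, and myogenic markers lie left of the median gene.

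The pathway genes with values most like each member were found by the Euclidean distance of log2(FPKM + 1) over the 2 libraries, which rests on 2 values per gene. Among the nearest to Mef2d were Tcf3 and Smarca4, at distances of 0.06 and 0.14. Mef2a was nearest to Cdk5, Maml1 and Map2k5, at 0.12, 0.13 and 0.18. For Mef2c the nearest were Dlk1, Mapk11 and Twist1, at 0.19, 0.22 and 0.26, so its pair of levels was less closely matched. Mef2b fell beside Smpx, Myh6 and Myh7, genes that were likewise under 1 FPKM in both libraries.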

How the data were processed

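PolyA RNA of 2 cultures, 1 Pax7 KO and 1 WT, was sequenced. The authors deposited FPKM, 1 column per genotype, per the file headers, and lists of called genes whose fold is the ratio of KO to WT FPKM. Per the submitters' processing notes, the tools were Cuffdiff 2.1.1, Cufflinks 2.1.1 and TopHat2 2.0.9 with the mm9 build, in roles left unstated. The sources used here do not give the rule behind the authors' lists.

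From the deposited FPKM, log2 ratios with a pseudocount of 1 were computed, with 1 repeated symbol summed, and genes with a mean FPKM of 1 or more formed the background. A 2-fold limit means a log2 ratio of 1 in size. Deposited starts count from 0, so 1 was added, since end minus start equalled the RefSeq length in 7162 of 20652 loci and fell 1 short of it in 455. Depth was the step at which FPKM times the longest GENCODE M21 transcript of low genes fell nearest to whole fragments. The fit was loose, with a mean cosine of 0.42 in KO and 0.39 in WT, where exact multiples give 1. Estimated fragments gave Clopper-Pearson and exact conditional 95% intervals. For the members with several transcripts, the FPKM is not a simple multiple of fragments, so these intervals are approximate. The depth fit and the ratios were also run on simulated data. Those values were whole fragments over a single length per gene, so that run could not check the loose fit of the real values. RefSeq promoters (GRCm38.p6) run from 250 bases before to 50 after a start, and motifs were searched on both strands. Protein sequences were not used here.

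The members and lists were chosen with earlier results of these data known. Genes were named if they were members, list genes past 2-fold (otherwise the 2 largest ratios), the 2 most abundant of each pathway list, or the 3 nearest to a member. Kat2b, Mapk14, Ckm, Pecam1, Cdh5, Acta2, Tagln, Cnn1, Myh11, Col1a1, Thy1, Sox9, Comp, Cd68, Foxd3, Erbb3 and the neighbouring rows were chosen after their values were seen. So were Mapk13, Mmp10, Pygm, Csf1r, Adgre1, Ptprc, Itgam, Rbfox3, Snap25, Map2 and Syt1. 4 listed symbols were matched through older names. A few genes named by the rule are not reported here. Computation used scipy 1.17.1, pandas 2.3.3, numpy 2.4.6, matplotlib 3.10.9 and Python 3.11.15. Alternatives were other pseudocounts, centring, upper-quartile scaling, a 1.5-fold limit and other filters.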

Additional observations from a re-analysis of the deposited data

How the results depend on the processing

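No paired analysis was possible because each genotype had 1 library, and for the same reason no library could be left out. No member shares its coordinates with another row, so the sum over overlapping rows was not run. Scaling moved Mef2a, Mef2c and Mef2d, and the pseudocount moved Mef2b. Relative to the median gene the log2 ratios were 0.15 for Mef2a, 0.29 for Mef2c, -0.27 for Mef2d and -0.085 for their sum with Mef2b, and with equal upper quartiles they were 0.061, 0.22, -0.40 and -0.22. Mef2d and the sum thus changed sign with the scaling. Mef2b was at -1.11 with a pseudocount of 0.1 and -1.91 without one, moves within the width of its counting interval. With a 1.5-fold limit 1 member was higher (Mef2c), and with a pseudocount of 0.1 or none 1 was lower (Mef2b). The change of the ratios between members moved by less than the counting intervals with a pseudocount of 1.

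Over all genes, 595 higher genes became 1104 with a pseudocount of 0.1, 159 relative to the median gene, 141 with equal upper quartiles, 3521 at 1.5-fold and 1204 without a pseudocount. The 81 lower genes became 170 relative to the median gene, 173 with equal upper quartiles, 168 at 1.5-fold and 32 with a mean of 5 FPKM or more. In the lists, the 2 higher kinases became 0 relative to the median gene and with equal upper quartiles, and 7 at 1.5-fold. Higher coactivators became 1 with pseudocounts of 0.1, 0.5 or none and 2 at 1.5-fold, and lower ones 2 with equal upper quartiles. At 1.5-fold 1 corepressor, 3 partners, 4 muscle targets and 5 targets of other cell types were higher. Of the last, 2 were higher with pseudocounts of 0.1, 0.5 or none. Among muscle targets 1 was higher without a pseudocount, and 1 was lower relative to the median gene, with equal upper quartiles and at 1.5-fold. The lower exon regulator count was 0 with a mean of 5 FPKM or more. Runs without a pseudocount, and with 1 for the ratios between members, were chosen after seeing the data. Of 46 other named genes, 8 changed sign relative to the median gene, 8 with equal upper quartiles and none with another pseudocount. Depth limits Mef2b alone of the members.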
